A study of Mus musculus with 3 samples.

Results

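Of 119257 single-base positions of chromosome X listed for LSD1-bound chromatin of MidK cells, 6940 (5.82%) were read with both the B6 base and a variant base and were absent from the list of the fibroblasts the cells came from. They were chosen by read counts: at least 2 B6 reads and at least 2 variant reads, at most 20 reads in sum, 1 entry at the position, and no entry of any kind there in the fibroblast list. The B6 base is the base so headed in the files, which matched the mm10 reference wherever it could be checked. The same rule gave 4476 of 186841 sites (2.4%) in LowK, the cells grown without Shield1, and these were the main comparison. A further 803 MidK sites had the same read counts but were listed in the fibroblasts.

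The study isolated chromatin with an antibody to LSD1 from 3 mouse samples, each 1 library. MEF are mouse embryonic fibroblasts at day 0. LowK and MidK are such fibroblasts after reprogramming with the vector SeVdp(fKOSMaB), taken on day 20. LowK had no Shield1, and MidK had 30 nM of it. The sources used here give no strain, sex, age or pooling of animals, no input library was used, and cell identity cannot be checked by marker expression in reads of this kind. With 1 library per group no difference has a replicate check. Intervals are exact 95% Clopper-Pearson intervals for counting error alone, and understate even that, because 1 read can cover several neighbouring sites.

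LSD1 (Kdm1a) removes methyl groups from histone tails and works with corepressor complexes. It is known for holding genes of other lineages silent, and its inhibition is used in reprogramming experiments. The small molecule Shield1 protects a protein from breakdown when that protein carries a matching destabilising tag. In female cells 1 X chromosome is silenced, and reactivation of the silent copy is a known step of reprogramming to pluripotency. Where parental chromosomes differ in sequence, reads that carry the differing base can be assigned to a parent; which strain carries the variant base is not given in the sources used here.

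The lists held 411944 single-base sites in MEF, 186841 in LowK and 119257 in MidK, with 2.14, 1.58 and 1.71 reads by allele per site. MEF also had the most reads, 883058 against 295240 and 203350. The B6 base of every single-base site inside a RefSeq promoter window matched the reference sequence there (333 of 333 in MidK, 899 of 899 in LowK, 1028 of 1028 in MEF).

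The members that fell into promoter windows are shown first, because there the sequence around them can be read. RefSeq (GRCm38.p6) gave 1223 windows on chromosome X, each from 250 bases before to 50 bases after a gene start. Some of these starts, such as those used for Flna and Zfx, lie inside the gene body. The windows held 32 members next to 26 genes, 9.61% (6.67% to 13.3%) of the 333 MidK sites in them. Over the chromosome the share was 5.82% of sites. In each of the following 30-base stretches, written 5′ to 3′ on the gene's strand, the capital marks the B6 base of the member, and changes are numbered from 1 at the 5′ end of the stretch. The first 4 have the highest Reliability scores among the promoter members that lie upstream of a start, and Suv39h1 and Shroom2 are shown for their LowK reads.
Atp7a (chrX:106027169-106027198, plus strand): agcttccgggccctGgcatcgcccggaagt
Zfx (chrX:94123496-94123525, minus strand): gacggtgtcggtggGccacggcctcgtgcg
Acsl4 (chrX:142390554-142390583, minus strand): cagccacaccaccgAgctcccccgctccgc
Rab9b (chrX:136868639-136868668, minus strand): tgggtcccctgcgcAgagaagggggcacta
Suv39h1 (chrX:8074404-8074433, minus strand): aggccggcgcggcaAacgtgggggccgaga
Shroom2 (chrX:152769526-152769555, minus strand): ctggaggctcctagGtggtgggccggttcg

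Atp7a, which encodes a copper transporter, had the change G15C with 2 B6 and 5 variant reads in MidK and a Reliability of 80; LowK listed the same site with 2 B6 and 3 variant reads. Zfx, a zinc finger transcription factor gene, had G15A with 2 B6 and 3 variant reads (Reliability 57), and LowK had 0 B6 and 2 variant reads. Both sites thus had variant reads in both reprogrammed samples. Acsl4, a gene of fatty acid activation, had A15T with 2 B6 and 3 variant reads (57). Rab9b, a small GTPase gene, had A15G with 2 B6 and 3 variant reads (46.2). LowK listed neither of these 2 positions. Suv39h1, which encodes a histone H3 lysine methyltransferase, had A15G with 2 reads of each base in MidK (12.6), while LowK had 0 B6 and 4 variant reads. Shroom2, an actin-binding protein gene, had G15T with 3 B6 and 2 variant reads in MidK (26.3), while LowK had 0 B6 and 5 variant reads. At these 2 sites MidK held the B6 base and LowK did not show it at its depth.

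Of the 32 promoter members, 13 (40.6%, 23.7% to 59.4%) were listed in LowK. All MidK sites in these windows were listed there at a like rate, 147 of 333 (44.1%). The changes were transitions, purine to purine or pyrimidine to pyrimidine, at 21 of the 32, and 7 of the 18 members with a C or G as B6 base lay in the dinucleotide CG (read on both strands), which 92.7% of the windows hold.

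Cldn34c1, a claudin-like gene of a multi-copy family whose reads are uncertain for that reason, had 4 members in its window, the most of any gene. The 250 bases before its start (chrX:123103273-123103522, plus strand) hold 3 of them, in capitals:
Cldn34c1: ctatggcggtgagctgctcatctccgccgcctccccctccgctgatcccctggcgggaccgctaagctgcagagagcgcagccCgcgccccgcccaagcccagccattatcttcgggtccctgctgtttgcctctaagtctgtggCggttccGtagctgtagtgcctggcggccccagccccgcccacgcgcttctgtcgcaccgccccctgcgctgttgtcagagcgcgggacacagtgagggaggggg
From left to right these sites had 3 B6 and 2 variant, 7 B6 and 3 variant, and 6 B6 and 3 variant reads in MidK. LowK did not list the first, and had 11 B6 and 3 variant reads at the second and 12 B6 and 5 variant reads at the last. B6 reads were the larger part at all 3 in MidK and at the 2 that LowK listed there.

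Flna, which encodes the actin crosslinker filamin A, had 2 members at adjacent bases. They are in capitals in the 250 bases before a start that lies inside the gene body (chrX:74246535-74246784, minus strand):
Flna: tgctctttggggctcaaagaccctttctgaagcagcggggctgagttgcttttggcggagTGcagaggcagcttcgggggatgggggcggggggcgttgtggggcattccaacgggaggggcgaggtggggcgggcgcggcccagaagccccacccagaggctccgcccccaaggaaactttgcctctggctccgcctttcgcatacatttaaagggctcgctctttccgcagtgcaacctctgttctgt
Both had 3 B6 and 2 variant reads and a Reliability of 26.2, and neither was listed in LowK. The pair is an example of members that share their counts with a neighbour, as described for the whole set further on.

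The read counts that chose the members are a description and carry no test. Members held 21607 B6 and 16180 variant reads, a median of 5 reads per site. Variant reads numbered exactly 2 at 76.1% of members, and B6 reads reached 5 or more at 14.7%, against 6.57% of the LowK sites and 9.96% of the MidK sites listed in MEF. Where counts were not tied, the variant base led at 844 of 4053 members (20.8%), at 887 of 2209 LowK sites (40.2%) and at 181 of 461 MidK sites listed in MEF (39.3%). As chosen by these counts, the MidK members had the B6 base in the lead more often than either of the other sets. The whole MidK list was also richer in B6 reads than the LowK list. Over all single-base sites, variant reads made up 81.1% in MidK and 90.2% in LowK. B6 reads reached 5 or more at 1.02% and 0.226% of these sites.

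**Figure D1:**
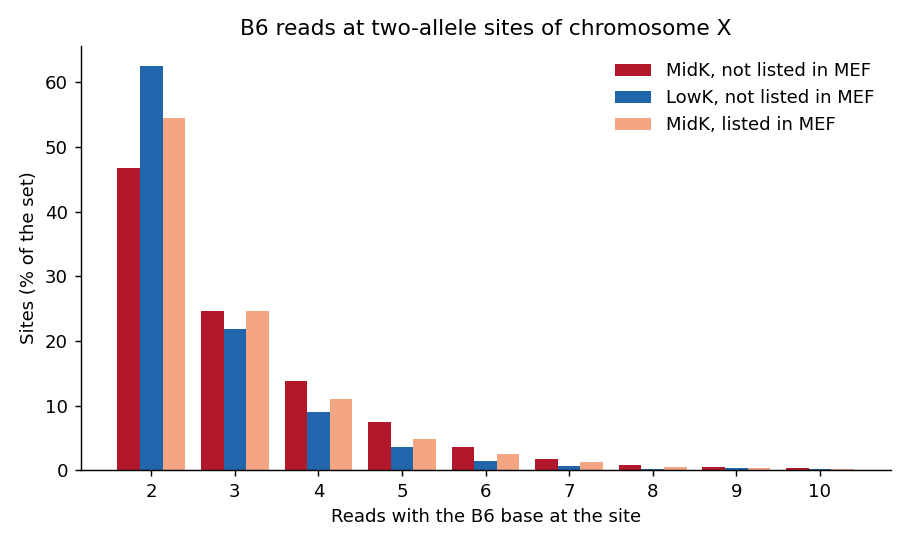
Share of sites (y axis, percent of each set) by the number of B6 reads at the site (x axis, 2 to 10 shown), for the MidK members, the LowK sites chosen by the same rule and the MidK sites of the same counts that MEF lists. Of the members, 46.8% had 2 B6 reads, against 62.5% of the LowK sites, and the members exceed the LowK sites at every count from 3 to 10.

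At the edges of the rule, 5281 members had 2 variant reads, while 35 positions absent from MEF had at least 2 B6 reads and 1 variant read and were left out. On the B6 side, 3245 members had 2 B6 reads, and 5857 sites with 1 B6 read and 14519 with none lay just outside. Only 1 member had 20 reads, and 2 sites had 21. The median Reliability was 23.1 for members with 2 B6 reads and 25.9 for the sites with 1.

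Being absent from MEF was more common among these sites than among MidK sites in general. Of all 7743 MidK sites with such counts, 89.6% (88.9% to 90.3%) were absent from the MEF list, against 83.3% of all single-base MidK sites. In LowK the corresponding shares were 80.7% (79.6% to 81.7%) and 79.7%. A listed MEF site nonetheless lay within 150 bp of 40.6% of members and 49.2% of the LowK sites.

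Base changes were of all 6 kinds, counted with both strands folded together. Among members, C:G to T:A made up 31.7% (30.6% to 32.8%), T:A to C:G 26.7% (25.6% to 27.7%), C:G to A:T 13.0% (12.3% to 13.9%), T:A to A:T 10.6% (9.88% to 11.3%), T:A to G:C 9.70% and C:G to G:C 8.33%. Transitions, the first 2 of these, came to 58.3% (57.2% to 59.5%) of members, 59.8% (58.3% to 61.2%) of LowK sites and 59.7% (59.4% to 59.9%) of all single-base MidK sites. MidK sites of the same counts that MEF listed had 64.01% (60.6% to 67.3%), and their interval lay above that of the members; weighted to the members' read counts they had 63.4%. Members thus held fewer transitions than their MEF-listed counterparts. LowK went the same way, with 63.8% (60.9% to 66.7%) at sites of the same counts that MEF listed against 59.8%. Those 2 LowK intervals overlapped at their ends. The difference of the members from the LowK sites, -1.42 percentage points (-3.27 to 0.43), had an interval that included 0. Among sites with a Reliability of at least 20 that difference was -3.09 points (-5.50 to -0.69), an interval that left out 0. T:A to A:T was the class in which members and LowK sites stood apart, at 10.6% against 8.49% (7.69% to 9.34%), and 8.33% with LowK weighted to the members' counts. Over all single-base sites this class made up 9.84% in MidK and 8.90% in LowK, so the whole lists differed in the same direction.

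The base changes varied with the balance of the reads. Members led by the variant base had 31.5% (28.4% to 34.8%) T:A to C:G, those led by the B6 base 24.5% (23.0% to 26.1%), and the 731 members with 2 variant and at least 5 B6 reads 20.8% (17.9% to 23.9%). C:G to A:T went the other way, at 11.5% (9.42% to 13.8%), 13.6% (12.4% to 14.8%) and 17.4% (14.7% to 20.3%). Transitions in all were 61.5% (58.1% to 64.8%) of the first, 57.5% (55.7% to 59.2%) of the second and 52.4% (48.7% to 56.1%) of the last group. LowK sites showed the same order for T:A to C:G, at 29.1%, 23.1% and 18.4%, and for transitions, at 62.01%, 57.5% and 51.1%. For C:G to A:T they did not, at 10.3% (8.34% to 12.4%), 14.6% (12.7% to 16.6%) and 14.4% (9.52% to 20.5%). The members with the fewest variant reads for their depth were poorest in transitions.

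Reliability, the score the authors' files give to each variant call, was lower in members than in the LowK sites. Its median was 19.4 (quartiles 10.8 and 23.4) in members, 23.4 (15.4 and 29.4) in LowK sites, 23.4 (15.5 and 30.7) in MidK sites listed in MEF and 23.4 (20.3 and 45.4) in MEF sites of the same counts. A score of at least 20 was reached by 49.1%, 66.1%, 64.5% and 79.6% of these sets. With the LowK sites weighted to the members' counts of each base, their median was 20.4 and their share at 20 or more 58.0%. The difference in medians, MidK minus LowK, was -3.98 as listed and -0.99 after this weighting. The column that holds this score in the MidK file carries another sample prefix than its read columns, but a lone variant read scored at most 8.14 in it, as in the MEF file.

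At equal read counts the gap depended on the variant reads. With 2 reads of each base the median was 22.9 in 2537 members, 23.4 in 2032 LowK sites and 23.4 in 11160 MEF sites, with lower quartiles of 11.7, 15.7 and 23.4. With 2 variant reads, members had the lower median in 2 of 7 count pairs that had at least 10 sites in both sets. With 3 or more, they had the lower median in 10 of 12. At 2 B6 and 3 variant reads the medians were 33.95 in 540 members, 46.04 in 558 LowK sites and 46.2 in MEF, and at 2 B6 and 4 variant reads 37.7 in 125 members, 64 in 139 LowK sites and 65 in MEF. Scores of members with more variant reads were thus spread further below the value usual for their counts.

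**Figure D2:**
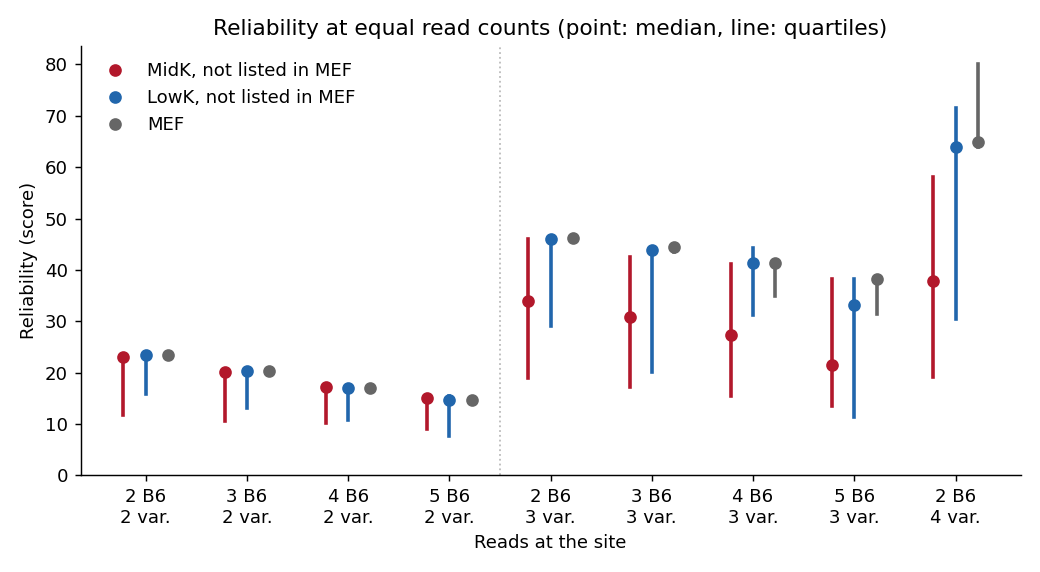
Reliability score (y axis) at sites of equal read counts (x axis, B6 reads above variant reads) in MidK members, LowK sites by the same rule and MEF sites; points are medians and lines run from the lower to the upper quartile. The medians lie together with 2 variant reads, left of the dotted line, while with 3 or 4 the members lie lowest, for example at 30.8 against 43.8 in LowK for 3 reads of each base.

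The 6 members with the highest Reliability included 2 tied at the last place. The highest, 129, belonged to X:159533126 within Bclaf3, with 3 B6 and 6 variant reads in MidK and 2 variant reads alone in LowK. X:91604832, outside the genes analysed, had 123 from 5 B6 and 10 variant reads, and LowK again had 2 variant reads and no B6 read. X:161717548 in Rai2 had 115 from 4 B6 and 6 variant reads, and LowK had 1 B6 and 2 variant reads. X:156290434 scored 109 from 2 B6 and 5 variant reads and was not listed in LowK. X:20862669 in Syn1, the gene of the synaptic vesicle protein synapsin I, scored 108 from 2 B6 and 5 variant reads, and LowK had 1 B6 and 2 variant reads. X:161589246, outside the genes analysed, had the same score from 2 B6 and 4 variant reads and was not listed in LowK. In 4 of these 6 sites LowK listed variant reads, and in none of the 4 did B6 reads exceed them.

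Members lay close together, as the listed sites did in general. Another member lay within 100 bp of 41.7% (40.5% to 42.8%) of them, and at the very next base of 5.89%. LowK sites had 42.2% (40.7% to 43.6%) and 6.01%, although there were fewer of them; weighted to the members' counts LowK had 44.2%. All single-base MidK sites, which are more numerous, had another of their set within 100 bp at 57.6% and at the next base at 5.97%. MEF sites of the same counts had 42.9% and 4.89%. The difference at 100 bp, MidK minus LowK, was -0.50 percentage points (-2.36 to 1.35). It was larger at 50 bp, at -2.21 points (-4.04 to -0.37), with a Reliability of at least 20, at -5.06 points (-7.40 to -2.71), and with 3 reads of each base, at -14.04 points (-18.9 to -9.15). Members with more support were thus less closely spaced than such LowK sites. MidK sites listed in MEF had 25.3% (22.3% to 28.4%), but with 803 sites in place of 6940; the part of that number in the spacing was not tested. Joining members at 100 bp or less gave 5277 groups: 4049 members stood alone, 912 groups had 2 members, 236 had 3, 60 had 4 and 20 had 5 or more. The groups of 2 or more held 2891 members.

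**Figure D3:**
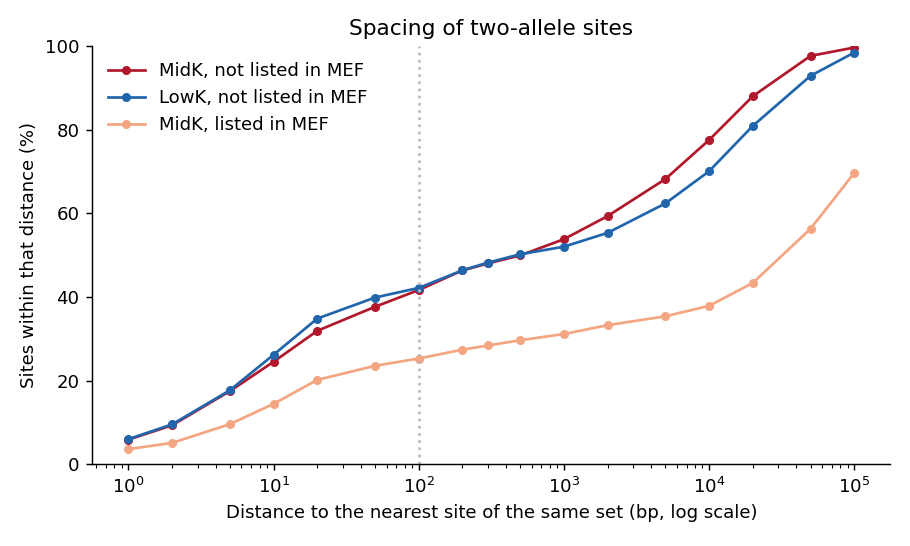
Share of sites (y axis, percent) whose nearest site of the same set lies within the distance on the x axis (bp, log scale), for MidK members, LowK sites by the same rule and MidK sites listed in MEF. Members lie slightly below the LowK sites at short range, with 24.5% and 26.2% of sites within 10 bp and 31.9% and 34.8% within 20 bp, meet them near the dotted line at 100 bp and lie above them at 10000 bp.

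Neighbouring members often carried the same read counts. Of 1663 pairs of consecutive members within 100 bp, 46.2% had the same B6 and the same variant count, against 20.2% of consecutive members farther apart. In LowK these shares were 59.6% and 27.8%. Sites that 1 read can span are not independent of each other. Members with and without a neighbour had nearly the same transition share, 58.4% and 58.3%, and nearly the same median Reliability, 19.5 and 19.2.

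The largest group had 10 members in 357 bp at chrX:140997145-140997501 within Atg4a, which encodes an autophagy protease. It had 2 to 8 B6 and 2 or 3 variant reads per site, and LowK listed none of the 10. A group of 8 lay within 116 bp at chrX:88382925-88383040, outside the genes analysed, with 2 to 4 B6 reads per site and no LowK entry. The other group of 8, at chrX:170673609-170673759 in Asmt, the gene of the last enzyme of melatonin synthesis, had 3 to 9 B6 reads per site, and LowK listed 6 of its sites, 3 of them by the same rule. Groups of 7 lay at chrX:15032614-15032772 and at chrX:170735046-170735076. Neither was in LowK. The last of these packed 7 members into 31 bp, with 6 or 7 B6 and 2 to 4 variant reads each and a median Reliability of 9.38.

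LowK listed 534 of the 6940 members (7.69%, 7.08% to 8.35%). Over all single-base MidK sites the share was 9.53%, but these include sites that MEF lists. Among the 99381 MidK sites absent from MEF, as the members are, it was 8.40% (8.23% to 8.58%), and this interval overlapped that of the members. With at least 3 reads of each base 11.04% (9.12% to 13.2%) of members were listed in LowK, and with a Reliability of at least 20 10.2% (9.19% to 11.3%), against 10.9% (10.5% to 11.3%) of all MidK sites absent from MEF with such a score. The 99381 sites include the members. Among the 92382 without 2 reads of each base, 8.44% (8.26% to 8.62%) were listed in LowK. The members' share was thus slightly lower, with intervals that overlapped at their ends. MidK sites with the same read counts that MEF listed were found in LowK far more often, at 24.9% (21.95% to 28.05%). Weighted to the members' counts they had 23.9%. All MidK sites were listed at 9.53% (11371 of 119257) and those absent from MEF at 8.40% (8349 of 99381). Since 83.3% of all MidK sites were absent from MEF, 9.53% understates the share of MEF-listed MidK sites in general. MEF-listed MidK sites in general were thus listed more often too, by more than these 2 shares differ. Their part in the gap between 24.9% and the members' share was not tested. In the opposite direction MidK listed 7.17% (6.43% to 7.97%) of the LowK sites. It listed 6.09% of all single-base LowK sites and 5.61% (5.49% to 5.73%) of those absent from MEF. LowK sites of the same counts that MEF listed were found in MidK at 15.4% (13.3% to 17.7%). A higher share at MEF-listed sites was thus seen in LowK too and was not particular to MidK. Members led by the variant base were listed in LowK at 13.2% (10.9% to 15.6%), tied members at 8.001% (7.04% to 9.05%), members led by the B6 base at 5.98% (5.19% to 6.86%) and those with 2 variant and at least 5 B6 reads at 3.56% (2.34% to 5.17%). Listing in LowK was thus lower the more the B6 base prevailed in MidK. By the rule, members led by the variant base also have 3 or more variant reads. Listing was 6.44% for members with 2 variant reads and 11.7% for those with 3 or more. At 2 variant reads, members with 2 B6 reads were listed at 7.37% (6.38% to 8.46%). Members with 2 variant and at least 5 B6 reads had the 3.56% (2.34% to 5.17%) given above. At equal variant reads listing was thus lower with more B6 reads, though these groups also differ in depth. The part of the number of variant reads at a fixed balance was not tested. LowK sites were listed in MidK at 10.1% (8.24% to 12.3%) with a variant majority and 6.66% (5.37% to 8.14%) with a B6 majority. Members at adjacent bases were listed in 2.45% (1.18% to 4.45%).

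**Figure D4:**
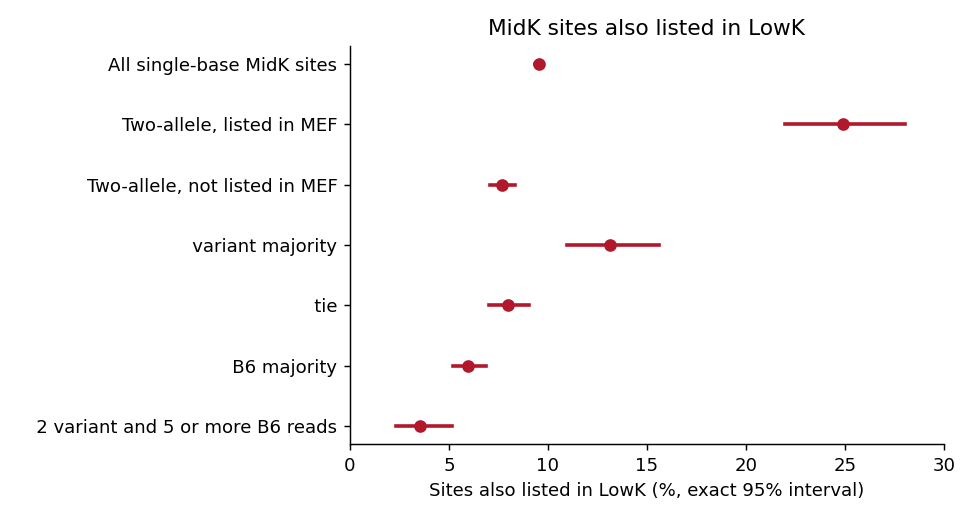
Percent of MidK sites also listed in LowK (x axis) with exact 95% intervals, for all single-base MidK sites, the MidK sites with the same counts listed in MEF, the members, and members split by the balance of their reads (y axis). The members are at 7.69% and all MidK sites, MEF-listed ones included, at 9.53%; the members' subsets run from 13.2% down to 3.56%, and members with a Reliability of at least 20, not plotted, were at 10.2%.

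The LowK reads at shared members were not used by the rule. At 528 of the 534 the variant base was the same in both libraries. At these LowK had 346 B6 and 1045 variant reads, a variant share of 75.1% (72.8% to 77.4%), and 365 sites (69.1%) had variant reads only. Every listed site has a variant read, which pushes such a share upward, and 41.5% of the 528 had a single LowK read. Over all single-base LowK sites the variant share was higher, at 90.2%. At the MidK sites listed in MEF the LowK share was also 75.1% (71.6% to 78.3%). In MidK the 528 shared members had a variant share of 48.2%, which the rule limits by asking for 2 reads of each base. At LowK sites found in MidK the variant share in MidK was 62.1% (58.98% to 65.1%). The members that met the rule in both libraries numbered 75, with variant shares of 44.9% (40.4% to 49.4%) in MidK and 47.02% (42.5% to 51.6%) in LowK. Where both libraries had a majority base there, it was the same in 26 of 41 sites: B6 in 17 and the variant in 9.

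Along the chromosome, members were spread widely. In windows of 1 Mb with at least 100 MidK sites, 14 to 87 members were found (median 44), and their share of sites had a median of 5.62% over 153 windows. The MidK share was above the LowK share in 152 of them. The highest share was in X:170000001 to 171000000, the end of the chromosome with Asmt, at 54 of 160 sites (33.75%, 26.5% to 41.6%); LowK had 38 of 130 (29.2%, 21.6% to 37.8%). Next came X:31000001 to 32000000, which holds copies of the Btbd35f and Spin2 families, with 67 of 222 (30.2%, 24.2% to 36.7%) and 52 of 250 in LowK (20.8%, 15.9% to 26.4%). Reads per site were 22.7 and 4.18 in these 2 windows against 1.71 over the MidK list, and the part of depth and of copies in the result was not tested. X:24000001 to 25000000 differed from them in that LowK was low there, with 28 of 214 sites in MidK (13.1%, 8.87% to 18.4%) and 4 of 220 in LowK (1.82%, 0.498% to 4.59%). MidK reads per site were 2.07 in this window, also above the 1.71 of the list, and the part of depth there was not tested either. From Mid1 to the end, members made up 61 of 369 sites (16.5%, 12.9% to 20.7%), and 13 of the 61 were listed in LowK. LowK had 49 of 457 there (10.7%, 8.04% to 13.9%), also above its own 2.4% over the chromosome, so the raised share was not particular to MidK.

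Most members lay outside gene bodies. Of the members, 26.2% (25.2% to 27.2%) lay in 1 of 1255 protein-coding or long noncoding genes, against 28.4% of all single-base MidK sites, and 30.3% (28.9% to 31.6%) of the LowK sites did so. Exons, introns and strand were not analysed here. Long genes held the most members: Dmd, the dystrophin gene, 84, the synaptic adhesion genes Il1rapl2 53 and Il1rapl1 34, the postsynaptic scaffold gene Frmpd4 42, the protocadherin gene Pcdh11x 30, the teneurin gene Tenm1 28 and the noncoding Gm15155 27. As a share of their MidK sites these were 5.45%, 5.71%, 3.84%, 4.87%, 6.40%, 5.10% and 6.25%, against the chromosome's 5.82%. The interval of Il1rapl1 (2.68% to 5.33%) lay below the chromosome's share, short of the 2-fold asked of a call, and those of the other genes included it.

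A gene was called when its member share was at least 2 times, or at most 1/2 of, the chromosome's share and its interval left out that share. Of 289 genes with at least 30 MidK sites, 20 were called higher (6.92%) and 15 lower (5.19%). The highest shares were those of Vsig4, a complement receptor gene of macrophages, at 9 of 32 sites (28.1%, 13.7% to 46.7%), Asmt at 24 of 87 (27.6%, 18.5% to 38.2%), and the noncoding genes Gm33733 at 10 of 38 (26.3%), Gm52428 at 8 of 31 (25.8%) and Gm31214 at 11 of 50 (22%). Atg4a (26 of 122, 21.3%) and the noncoding Gm35105 (25 of 180, 13.9%) were also called. No member was found in Tmem164 (110 sites, up to 3.30%), Tbl1x, which encodes a subunit of a nuclear corepressor complex (76 sites, up to 4.74%), Dgkk, a diacylglycerol kinase gene (75 sites, up to 4.80%), Gpc4, a glypican gene (73 sites, up to 4.93%), or Tspan7, a tetraspanin gene (70 sites, up to 5.13%). Adgrg2 (70 sites) and Nxf3 (62 sites), also called lower, had none either. Called genes differed in depth: the 20 higher ones had 1.92 to 12.4 reads per MidK site and the 15 lower ones 1.11 to 1.45, against a median of 1.56 over the tested genes. The part of depth in these calls was not tested. With 1 site per 300 bp, 4 of the 20 and 9 of the 15 kept the call, with 167 genes left to test.

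By the same comparison in LowK, 3 of the 20 and 3 of the 15 were called in the same direction. The share of all tested genes that LowK called is not given here, so this overlap has no background rate. LowK's lower share over the chromosome, 2.4%, also makes a lower call need more sites. Tspan7, for example, had 0 of 119 LowK sites (up to 3.05%) and was not called there. Set against LowK and the chromosome-wide ratio of 2.43, 2 of 287 genes were higher in MidK (0.697%) and 2 lower (0.697%). Prrg1, which encodes a membrane protein with a Gla domain, had 17 members among 103 MidK sites (16.5%, 9.92% to 25.1%) and 1 among 154 LowK sites (0.649%, 0.0164% to 3.56%). Pola1, the gene of the catalytic subunit of DNA polymerase alpha, had 21 of 237 (8.86%, 5.57% to 13.2%) and 2 of 341 (0.587%, 0.0711% to 2.10%). Atg4a and Asmt were the lower ones, at 21.3% in MidK and 21.2% in LowK for Atg4a and 27.6% and 35.3% for Asmt, shares that did not rise from LowK to MidK as those of the chromosome did. None of these 4 calls was kept with 1 site per 300 bp.

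**Figure D5:**
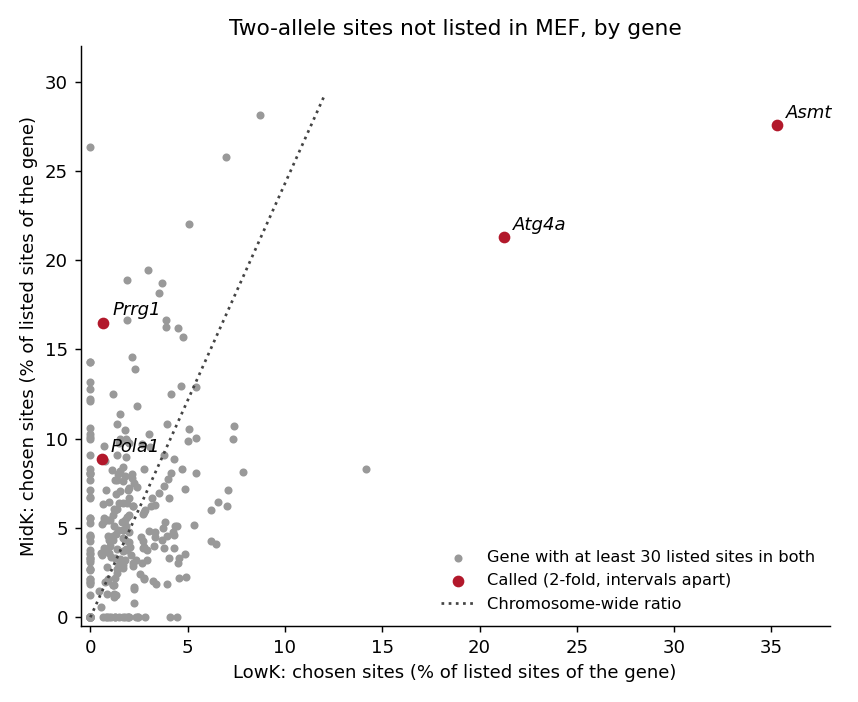
Each point is a gene with at least 30 listed sites in both libraries; axes give the percent of its listed sites that met the rule in LowK (x) and in MidK (y), and the dotted line is the chromosome-wide ratio of 2.43. Prrg1 and Pola1 lie above the line with few LowK sites, and Atg4a and Asmt lie far to its right.

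Genes tied to chromatin and to X inactivation had list-wide shares whose intervals included the chromosome's 5.82%. Over all 289 tested genes the median share was 4.69%; over the tested genes of the lists it was 8.10% for chromatin and corepressor genes, 5.13% for the X-inactivation centre, 2.70% for escape genes, 5.63% for stem cell genes and 2.22% for fibroblast and matrix genes. Kdm6a and Kdm5c stand in the chromatin and the escape list, and Rhox5 and Rhox6 in the stem cell and the Rhox list. Of all 1255 genes, 420 had a member. Genes with more listed sites have more room for one, and the list counts of genes with a member were not adjusted for this. Of 18 chromatin and corepressor genes 14 had a member. The list held 63 members among 873 sites (7.22%, 5.59% to 9.14%) and 46 of 1828 sites in LowK (2.52%). Of 12 tested there, Usp9x, a deubiquitinase gene (11 of 66, 16.7%, 8.62% to 27.9%), and Phf6, a gene of a nuclear protein with PHD-like zinc fingers (7 of 37, 18.9%, 7.96% to 35.2%), were called higher, and 0 lower; neither was called with 1 site per 300 bp. The histone demethylase gene Phf8 had 9 of 79 (11.4%), the ubiquitin ligase gene Huwe1 7 of 66 (10.6%) against 0 of 106 in LowK, the corepressor gene Bcor 5 of 108 (4.63%) against 14 of 327 in LowK (4.28%), and the deacetylase gene Hdac8 5 of 133 (3.76%). Of the X-inactivation centre, 5 of 8 genes found had a member, with 14 members among 257 sites (5.45%, 3.01% to 8.97%), and Ftx, a noncoding gene that promotes Xist expression, had 5 of 62 (8.06%). Xist itself had 2 of 20. The 11 escape genes had 28 members among 616 sites (4.55%, 3.04% to 6.50%), of which Shroom4 held 11 (of 142 sites, 7.75%), and 1 of 7 tested was called lower, Mid1, a ubiquitin ligase gene, at 3 of 188 (1.60%, 0.330% to 4.59%).

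Of the stem cell genes 6 of 13 found had a member, 31 among 406 sites (7.64%, 5.25% to 10.7%), and of these Tex11, a gene of meiosis, held 16 of 149 (10.7%, 6.26% to 16.9%) and the Krüppel-like factor gene Klf8 6 of 128 (4.69%); 0 of 3 tested were called. The fibroblast and matrix genes had 37 members among 874 sites (4.23%, 2.998% to 5.79%, just under the chromosome's share), with 1 of 7 tested called lower, Gpc4. Col4a6, a basement membrane collagen gene, held 20 of these 37 (of 191 sites, 10.5%, 6.51% to 15.7%), while its neighbour Col4a5 had 6 of 197 (3.05%, 1.13% to 6.51%) and the glypican gene Gpc3 7 of 193 (3.63%). In LowK, Col4a6 had 7 of 397 (1.76%), Col4a5 6 of 224 (2.68%) and Gpc3 2 of 373 (0.536%). The 34 Rhox genes, a multi-copy homeobox cluster, had 6 members among 118 sites, and 0 of them had enough sites to test.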

How the data were processed

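Chromatin bound by LSD1 was sequenced from 1 library each of MEF, LowK and MidK; groups come from the sample titles. The submitters' processing notes name BWA and mm10, and the series' design text names bcftools mpileup for the variant calls; how reads were filtered is not given in the sources used here. Read counts of the B6 base, of the variant base and of both with any others (depth) were deposited per position, per the file headers. Reliability is a score the authors deposited with each call; in the MidK file its header has another sample prefix. Members and lists were chosen with earlier results of these data known. Shares, medians and exact 95% intervals were computed with Python 3.11.15, pandas 2.3.3 and SciPy 1.17.1, after the counting and gene calls had been tested on simulated data. To compare sets at equal counts, sites were weighted so that each pair of B6 and variant counts had the members' frequency; LowK sites covered 99.6% of members and MEF-listed sites 98.6%. Gene positions, with no strand used, and promoter sequences are from RefSeq, GRCm38.p6; Tsix, Linx, Cnbp2 and Utf1 of the lists were not analysed here. Named genes are the 10 with the most members, the 5 called genes of highest and 5 of lowest share, list genes with at least 5 members and genes called against LowK; a few others (Xist, Mid1, Adgrg2, Nxf3), the sixth site tied in Reliability and the promoter sites printed were chosen after their values were seen.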

Additional observations from a re-analysis of the deposited data

Results flagged for a closer look

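The depth column counts reads beyond the B6 and variant reads, which no comparison above uses. At the members these were 1357 reads, 3.47% of the depth (3.29% to 3.65%), at 15.3% of the sites. At MEF sites with the same read counts they were 1.95% (1.88% to 2.01%), at LowK sites by the same rule 2.26% (2.08% to 2.46%), and at MidK sites listed in MEF 4.79% (4.19% to 5.44%). Over all single-base sites they were 4.06% in MidK, 2.94% in LowK and 3.46% in MEF. The share was marked because it lay above that of the fibroblasts at sites of like counts; what these reads are was not tested.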

How the results depend on the processing

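No paired analysis was possible because each group has 1 library. Across 15 results and 102 alternatives, 67 values stayed within their counting interval, or within 1.5 times for a count, 35 moved and 0 reversed. Asking for 3 reads of each base left 951 members, with a variant majority at 22.6%, a median Reliability of 27.3, a neighbour within 100 bp at 25.03%, 11.04% listed in LowK with a variant share there of 63.5%, and MidK minus LowK differences of -14.03 in median Reliability and -14.04 percentage points in neighbours. Asking for a Reliability of at least 20 left 3405 members, with 36.4%, 23.4, 32.4%, 10.2% and 72.7% for the same measures and differences of 0 and -5.06; the transition difference was -3.09 points against -1.42. Leaving out sites with an MEF-listed site within 150 bp left 4123, with a median Reliability of 18.3 (difference -4.75), 40.5% with a neighbour, 5.87% listed in LowK and a variant share there of 78.9%. That variant share was 65.3% with no upper limit on reads and 78.4% with 1 site per 300 bp. Neighbours were at 37.7% within 50 bp, 48.01% within 300 bp and 39.96% without the densest 1% of 10 kb windows. With LowK weighted to the members' counts the differences were -0.99 in Reliability and -2.55 points in neighbours. Called genes numbered 35 (20 higher); they were 23 (8 higher) with at least 60 sites and 14 (4 higher) with 1 site per 300 bp, where calls against LowK were 0 (0 higher). Fewer genes could be tested in both cases. Weighting the MEF-listed sites, an alternative chosen after seeing the data, gave a difference in LowK listing of 16.2 points against 17.2. Neighbours were not recomputed with 1 site per 300 bp, which leaves none by construction. Most sites had few reads, so a base not listed may be unread at this depth, and with 1 library each, a difference between conditions cannot be told apart from one between libraries.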
